A study of Mus musculus with 4 samples.

Results

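The genes described here are 42 mouse genes at 17 imprinted loci, all outside the Dlk1 and Peg10 clusters, taken by symbol from a list of known imprinted genes, with no measured value in the rule. Counts were read for 41 of them, out of 32531 gene rows, and Zfp264 was not analysed here. They were grouped by locus and by the parental allele that textbooks give as the active one. This put 21 genes in a paternal class, 7 in a maternal class and 14 in a class whose imprint depends on isoform, cell type or stage.

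An imprinted gene is transcribed from 1 parental copy, because DNA methylation set in the egg or the sperm marks a control region and is kept on that copy after fertilization. KRAB zinc finger proteins such as ZFP57 and ZFP445 bind the methylated copy and recruit TRIM28 and SETDB1, and DNMT1 with UHRF1 copies the methylation at cell division. In the brain many of these genes are active in neurons, where they bear on growth, feeding, maternal care and sleep, and several switch allele or lose their imprint by cell type. The counts used here do not separate the parental alleles, so each value is the sum over both copies.

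RNA came from mice older than 20 months of the line Drd1-EGFP/Rpl10a CP73, in which the promoter of the dopamine receptor gene Drd1 drives a green fluorescent ribosomal protein in one class of striatal projection neuron. All 4 libraries are of the input kind, from dissected tissue and not from the tagged ribosomes, with 2 libraries of dorsal striatum and 2 of accumbens nucleus. Every group therefore carries the transgene and is old, and no young or non-transgenic group was compared. Whether the 2 libraries of a region are from different animals is not labelled, and a p-value here reflects only how far these samples spread, which may be technical. Counts assigned to genes were 8991788 and 11849134 for replicates 1 and 2 of dorsal striatum, against 8606099 and 8478403 for those of accumbens. In the marker list of spiny projection neurons, the main neurons of both regions, all 10 genes were detected, with a summed level of 4954 and 5103 CPM (counts scaled to library size with edgeR's TMM factors) in dorsal striatum against 4646 and 3993 in accumbens. One of the 10 passed the test described below: Rgs9, which speeds the shut-off of G proteins, was lower in accumbens, at 659 and 663 CPM against 1590 and 1314 CPM in dorsal striatum. Without Rgs9 the sums of the other 9 overlapped, at 3364 and 3789 CPM in dorsal striatum beside 3987 and 3330 CPM in accumbens. These are bulk samples, in which fewer cells of a type and less RNA per cell cannot be told apart.

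Promoter sequences were available for 32 of the 42 genes, as 48 windows of 300 bases that start 250 bases before an annotated transcript start (RefSeq, GRCm38.p6). Shown are windows of Nnat and Mest, the genes that passed the test below, of Blcap and Copg2, their neighbours on the opposite strand, and of Nap1l5, whose log2 fold change was the lowest. Capitals mark TGCCGC or its reverse complement GCGGCA, the core of the motif that ZFP57 binds when methylated. Nnat is at chr2:157559828-157560127 on the plus strand, Mest at chr6:30737800-30738099 on the plus strand, Blcap at chr2:157566312-157566611, Copg2 at chr6:30896745-30897044 and Nap1l5 at chr6:58907077-58907376, these 3 on the minus strand.
Nnat: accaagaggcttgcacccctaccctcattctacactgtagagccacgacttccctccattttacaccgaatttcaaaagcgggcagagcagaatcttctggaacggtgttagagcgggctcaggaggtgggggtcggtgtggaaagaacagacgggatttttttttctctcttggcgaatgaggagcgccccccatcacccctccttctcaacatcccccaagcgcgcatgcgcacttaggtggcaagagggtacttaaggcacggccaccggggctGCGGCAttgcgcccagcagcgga
Mest: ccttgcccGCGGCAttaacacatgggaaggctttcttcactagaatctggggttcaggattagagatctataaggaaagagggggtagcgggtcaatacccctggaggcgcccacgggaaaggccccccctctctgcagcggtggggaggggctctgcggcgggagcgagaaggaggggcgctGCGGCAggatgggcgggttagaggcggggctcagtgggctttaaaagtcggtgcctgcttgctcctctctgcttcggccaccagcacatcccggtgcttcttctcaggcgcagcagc
Blcap: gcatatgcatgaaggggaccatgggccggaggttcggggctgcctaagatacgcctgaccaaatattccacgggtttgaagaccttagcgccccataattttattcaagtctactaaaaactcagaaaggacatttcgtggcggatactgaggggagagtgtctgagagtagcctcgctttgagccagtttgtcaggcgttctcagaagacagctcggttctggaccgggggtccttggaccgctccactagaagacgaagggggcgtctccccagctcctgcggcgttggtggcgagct
Copg2: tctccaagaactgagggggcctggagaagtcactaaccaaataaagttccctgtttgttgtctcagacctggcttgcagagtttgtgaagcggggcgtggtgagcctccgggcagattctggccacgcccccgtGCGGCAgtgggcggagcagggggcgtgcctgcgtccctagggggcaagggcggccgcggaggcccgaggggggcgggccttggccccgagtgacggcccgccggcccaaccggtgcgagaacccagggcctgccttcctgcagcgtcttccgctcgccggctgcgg
Nap1l5: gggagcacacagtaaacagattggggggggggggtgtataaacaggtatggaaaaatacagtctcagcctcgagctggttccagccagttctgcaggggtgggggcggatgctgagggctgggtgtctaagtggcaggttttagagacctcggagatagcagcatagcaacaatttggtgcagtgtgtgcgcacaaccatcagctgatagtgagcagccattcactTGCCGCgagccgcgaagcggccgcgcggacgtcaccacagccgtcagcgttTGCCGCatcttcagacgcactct
The Nnat window held 1 match, which starts 27 bases after the transcript start, and the printed Mest window held 2. Of the 3 Mest windows, another overlaps the printed one nearly whole and held 2, while the window further upstream, at chr6:30733256-30733555, held 0. The Nap1l5 window held 2, the Copg2 window 1 and the Blcap window 0. The share with the motif on either strand was 11.6% over all 32851 windows, and 13 of 48 of the members' windows held it (27.1%). By gene, 12 of the 32 members with windows held it, beside 13.1% of all 27025 genes. The motif itself holds a CpG, and the members' windows were richer in CpG. Their median ratio of observed to expected CpG was 0.67 against 0.38 over all windows. Their median GC content was 57.5% against 52.7%. The motif share and the CpG content are therefore not separate traits. Some of the 48 windows overlap, such as those of Snrpn and Snurf, and no test was made. A match is a run of letters and not a measured binding site.

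**Figure D1:**
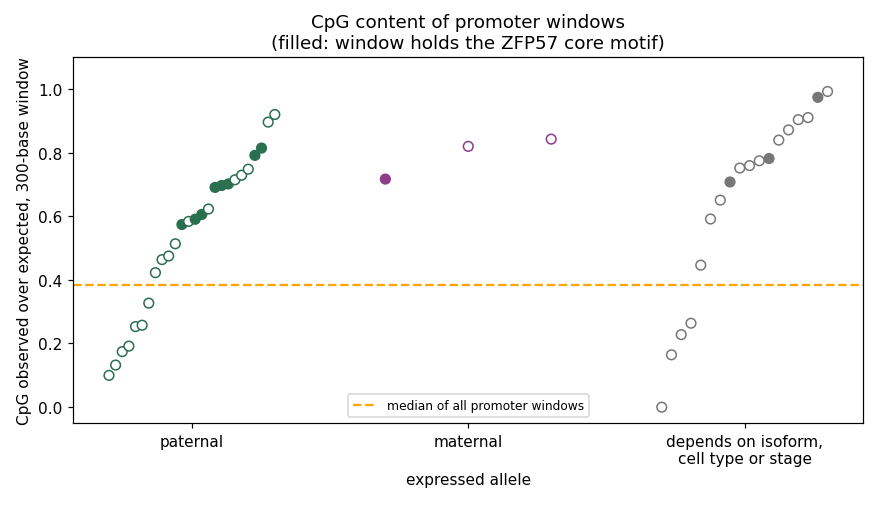
Ratio of observed to expected CpG (vertical axis) in each 300-base promoter window of the imprinted genes, placed by expressed allele (horizontal axis) and in rising order within it, where filled points hold the core motif of ZFP57 on either strand. The dashed line is the median of all promoter windows at 0.38, and the median of the members' windows is 0.67.

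Between the regions, Nnat and Mest were higher in accumbens, and no member was lower there past the threshold. Of the 41 members with counts, 33 passed the filter on low counts and were tested. The 2 calls, both higher in accumbens and both genes active on the paternal copy, make up 6.06% of the tested members, while 1.28% of all 14493 tested genes passed (0.994% higher and 0.290% lower in accumbens). The test is edgeR's quasi-likelihood test with Benjamini-Hochberg adjustment over all tested genes at 0.05. The median log2 fold change, accumbens over dorsal striatum, was 0.19 over the members and 0.02 over all tested genes. Among the members 20 had a positive and 13 a negative value. The regions did not overlap for 14 members: both accumbens libraries lay above both dorsal striatum libraries for 10 (30.3%) and below them for 4 (12.1%), beside 51.2% of all tested genes without overlap, 25.6% above and 25.6% below. Without accumbens replicate 1 the calls among the members came to 8 of 34 tested (23.5%), when 18.2% of all tested genes passed. Without accumbens replicate 2 they came to 11 of 35 (31.4%), when 28.9% of all tested genes passed. Calls that appear below only with an accumbens library left out are to be read against these shares. Scaling by library size alone moved the median of all genes to −0.15 and that of the members to 0.02, and under it Nnat and Mest remained past the threshold.

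**Figure D2:**
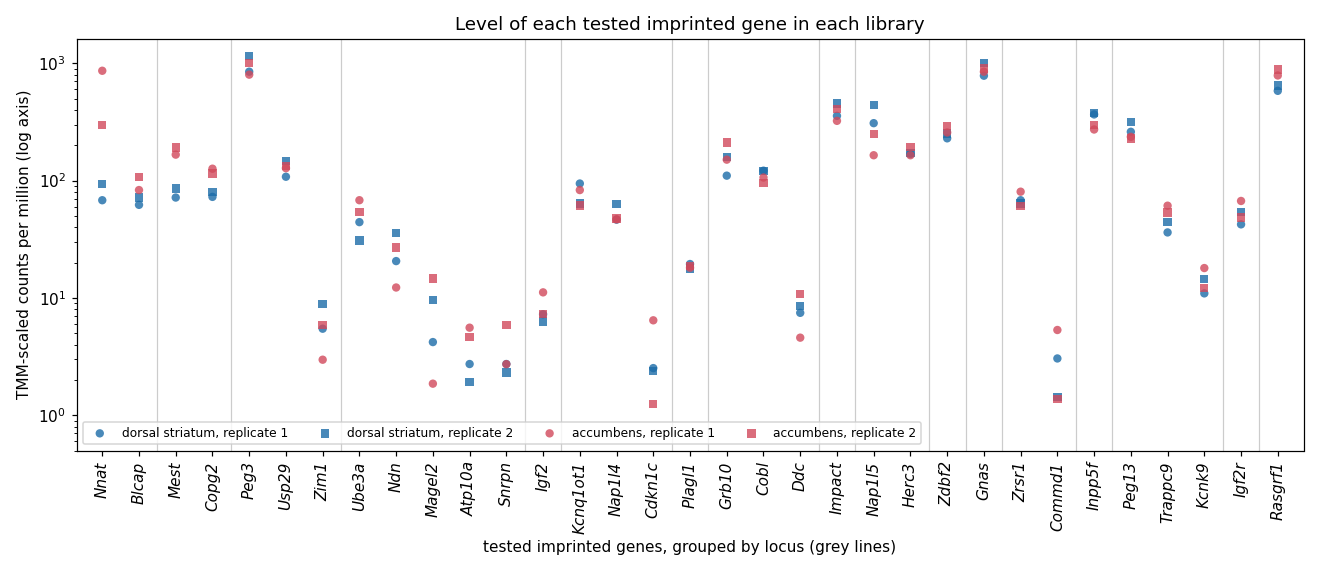
Level in CPM on a log axis (vertical) for each of the 33 tested imprinted genes in each of the 4 libraries, ordered by locus, with blue for dorsal striatum and red for accumbens. Nnat has the widest gap between regions, with 298 and 863 in accumbens above 68.0 and 93.9 in dorsal striatum.

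Nnat encodes neuronatin, a small membrane protein of the endoplasmic reticulum, and sits within an intron of Blcap on the opposite strand (chromosome 2, 157560078 to 157562522, GRCm38). It stood at 68.0 and 93.9 CPM in replicates 1 and 2 of dorsal striatum, and at 863 and 298 CPM in those of accumbens. Both accumbens libraries were above both dorsal striatum libraries, and accumbens replicate 1 was 2.90 times replicate 2. The fitted difference was 7.16-fold, a log2 fold change of 2.84 (SE 0.44, n = 2 per region, edgeR adjusted p = 0.0348). Without accumbens replicate 1 the log2 fold change was 1.87, without accumbens replicate 2 it was 3.41, and both passed the threshold. By fold change Nnat ranked 26 of 14493 tested genes.

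Markers of cortical glutamatergic neurons moved with Nnat between the regions and between the accumbens libraries. Their summed level over 7 genes was 140 and 57.3 CPM in replicates 1 and 2 of dorsal striatum, against 363 and 184 CPM in those of accumbens. Slc17a7, the vesicular glutamate transporter gene that defines these neurons, stood at 32.3 and 0.72 CPM in dorsal striatum, near the level of a few reads in replicate 2, and at 198 and 79.4 CPM in accumbens. Of the 6 tested markers none passed the threshold. Dorsal striatum replicate 1 had more Slc17a7 than replicate 2 and less Nnat. The part of these cells in the Nnat result was not tested.

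Blcap, the host gene of Nnat, encodes a small protein first found reduced in bladder cancer, and in brain its isoforms differ in imprint. It stood at 62.1 and 71.8 CPM in dorsal striatum and at 83.0 and 107 CPM in accumbens. The groups did not overlap, with a log2 fold change of 0.51 (SE 0.18) that missed the threshold (edgeR adjusted p = 0.188) and passed without accumbens replicate 1 (0.68). Within a library the ratio of Nnat to Blcap counts was 1.09 and 1.31 in dorsal striatum, against 10.4 and 2.77 in accumbens. On the log2 scale the ratio was 2.17 higher in accumbens (SD within regions 0.96). The exact permutation test gave p = 0.333, the smallest that 2 libraries against 2 allow in a two-sided test. This ratio does not depend on the scaling of the libraries, and in accumbens replicate 1 and replicate 2 Blcap went the other way from Nnat.

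The nearest tested protein-coding genes around Nnat and Blcap gave no call. Src, a tyrosine kinase gene 84.5 kb away, had a log2 fold change of −0.14 (SE 0.30), and Ctnnbl1, a splicing factor gene 166.1 kb away on the other side, had 0.02 (SE 0.27). Manbal and Vstm2l, the next genes outward, had 0.58 (SE 0.44) and 0.88 (SE 0.39), with edgeR adjusted p of 0.525 and 0.265.

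Mest, also called Peg1, encodes an enzyme of the alpha/beta hydrolase family linked to growth and to maternal behaviour (chromosome 6, 30723547 to 30748465). It stood at 71.7 and 85.8 CPM in dorsal striatum and at 166 and 191 CPM in accumbens. The regions were well apart and the libraries of each region close to each other. The fitted difference was 2.26-fold (log2 fold change 1.18, SE 0.16, edgeR adjusted p = 0.0262), and with each library left out it lay between 1.04 and 1.31 and stayed past the threshold. Among the 5 astrocyte markers Gja1, a gap junction gene, also passed as higher in accumbens, at 27.1 and 28.0 CPM in dorsal striatum against 52.9 and 58.3 CPM in accumbens (log2 fold change 1.01, SE 0.19, edgeR adjusted p = 0.0491). The other 4 astrocyte markers overlapped between regions, with sums of 303 and 179 CPM beside 259 and 239 CPM. The 5 microglia markers had positive values from 0.08 to 0.88 and none passed, with sums of 50.1 and 37.7 CPM in dorsal striatum beside 61.4 and 64.8 CPM in accumbens. Other marker sums also lay above in accumbens, among them that of the cortical neurons given before. Neuroblast markers summed to 101 and 107 CPM in dorsal striatum beside 152 and 125 CPM in accumbens (4 positive and 2 negative values). Oligodendrocyte markers summed to 1954 and 1351 CPM beside 2025 and 2363 CPM (4 positive and 1 negative). The part of any of these cells in the Mest result was not tested.

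Copg2, a coat protein gene of Golgi vesicles, runs towards Mest on the opposite strand and meets its end. In the GENCODE annotation 23.1% of the exonic bases of Mest are also exonic in Copg2, and reads there cannot be assigned to one of them if strand was not used in the counting. Copg2 stood at 72.6 and 79.6 CPM in dorsal striatum and 126 and 115 CPM in accumbens. The groups did not overlap, with a fitted log2 difference of 0.67 (SE 0.15, edgeR adjusted p = 0.0756). With 1 library left out the log2 value of Copg2 lay between 0.58 and 0.73. Of the 10 alternatives that kept all 4 libraries it passed in 4. These were DESeq2 (adjusted p = 0.00846), limma-voom (0.0499), edgeR without the low-count filter (0.0082) and edgeR with a replicate block (0.0227). It missed in the others, among them the newer edgeR fit (adjusted p = 0.0526) and edgeR with library size alone (0.114). Over all genes the 4 settings passed 897, 431, 1203 and 843, against 186 in the main test. The ratio of Mest to Copg2 counts was 0.99 and 1.08 in dorsal striatum, against 1.32 and 1.65 in accumbens, which on the log2 scale is 0.52 higher in accumbens (SD within regions 0.18, exact permutation p = 0.333). Klf14, a maternally expressed transcription factor gene beyond Copg2, had 2, 2, 4 and 6 counts in the 4 libraries and was not tested. Of the nearest genes outside, Cep41, a centrosome gene 29.8 kb away, had a log2 fold change of 0.34 (SE 0.36) and Mkln1 −0.05 (SE 0.16). Podxl, 560.4 kb from the locus, had 2.21 (SE 0.58, edgeR adjusted p = 0.105), with 35.3 and 9.38 CPM in the accumbens libraries beside 5.46 and 4.22 CPM in the dorsal striatum libraries.

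**Figure D3:**
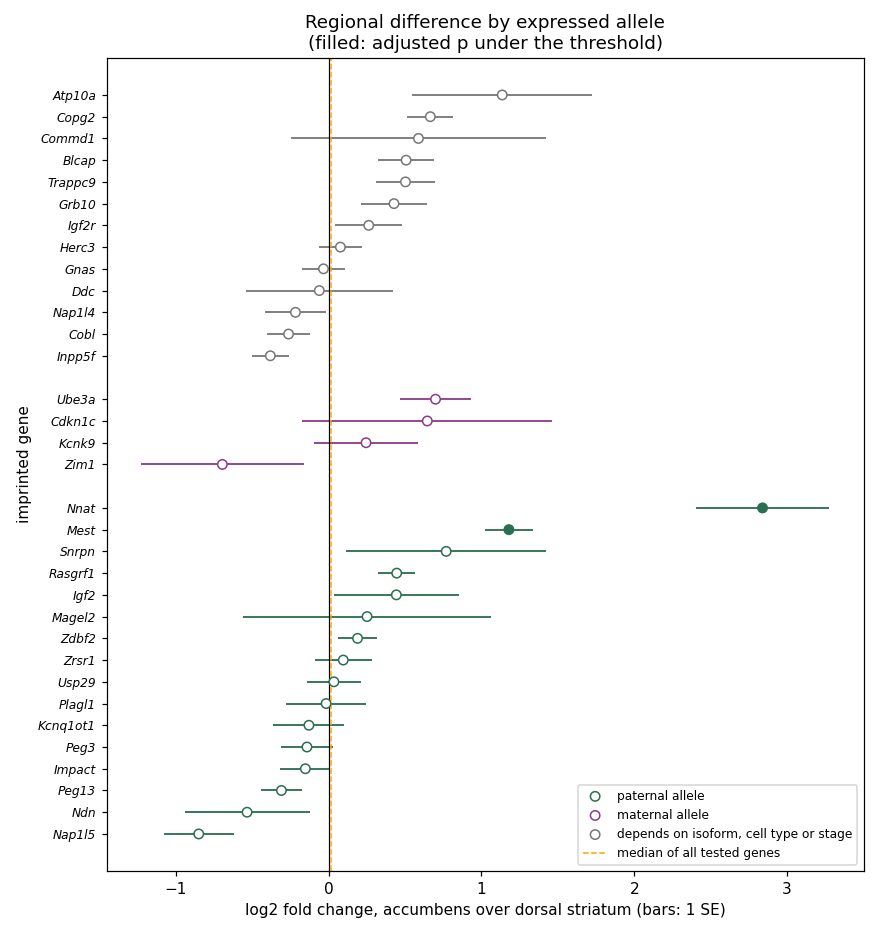
Log2 fold change of accumbens over dorsal striatum (horizontal axis, bars 1 SE) for the 33 tested imprinted genes, grouped by expressed allele (vertical axis), with filled points past the threshold and a dashed line at the median of all tested genes. Nnat at 2.84 and Mest at 1.18 are the filled points, and Nap1l5 at −0.85 is the lowest.

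By expressed allele the tested members did not fall on one side. Of 16 tested paternal genes 9 had positive and 7 negative values (median 0.06, from −0.85 for Nap1l5 to 2.84 for Nnat). The 4 tested maternal genes had 3 positive values and 1 negative value (median 0.44), with no call. The 13 tested genes of the third class had 8 positive and 5 negative values (median 0.26), also with no call. At an unadjusted p under 0.05 there were 7 members with positive and 2 with negative values, beside 19.2% of all tested genes (10.9% and 8.27%).

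Nap1l5 encodes a nucleosome assembly protein and is a retrogene, a copied gene placed in an intron of Herc3. It stood at 308 and 439 CPM in dorsal striatum and 164 and 251 CPM in accumbens. Both accumbens libraries were below both dorsal striatum libraries, and within each region replicate 2 was the higher one. The fitted value of −0.85 (log2, SE 0.23) missed the threshold (edgeR adjusted p = 0.109), while DESeq2 gave an adjusted p of 0.002. Over all genes DESeq2 passed 897, against 186 in the main test. Leaving out a library gave −1.19 to −0.58, past the threshold except without dorsal striatum replicate 2. Herc3, the host, which encodes a ubiquitin ligase, had 168 and 171 CPM in dorsal striatum and 164 and 193 CPM in accumbens (log2 fold change 0.08, SE 0.14). The ratio of Nap1l5 to Herc3 counts was 1.83 and 2.57 in dorsal striatum, against 1.00 and 1.30 in accumbens, lower in both accumbens libraries (difference −0.93 on the log2 scale, SD within regions 0.31, exact permutation p = 0.333).

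Zrsr1, a splicing factor retrogene in an intron of Commd1, gives another such pair. Zrsr1 had 68.0 and 63.8 CPM in dorsal striatum and 80.4 and 60.4 CPM in accumbens, with overlapping groups (log2 fold change 0.10, SE 0.19). Commd1, which encodes a regulator of copper and of NF-kappa-B, had only 29 and 18 counts in the dorsal striatum libraries and 43 and 11 in the accumbens libraries. Its fold change of 0.59 on the log2 scale (SE 0.83) is accordingly loose.

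Peg13 is a paternally expressed noncoding RNA in an intron of Trappc9, a gene of vesicle transport that in brain favours the maternal copy, as does the potassium channel gene Kcnk9 nearby. Peg13 stood at 260 and 314 CPM in dorsal striatum and 236 and 228 CPM in accumbens, with both accumbens libraries lower (log2 fold change −0.31, SE 0.14, edgeR adjusted p = 0.265). Trappc9 stood at 36.1 and 44.5 CPM in dorsal striatum and 61.1 and 53.4 CPM in accumbens, with both accumbens libraries above (0.50, SE 0.19, edgeR adjusted p = 0.215), and Trappc9 passed without accumbens replicate 2 (0.59). The ratio of Peg13 to Trappc9 counts was 7.19 and 7.04 in dorsal striatum, against 3.86 and 4.26 in accumbens. The log2 difference of −0.81 compares with an SD within regions of 0.07 (exact permutation p = 0.333), the tightest of the 14 ratios computed. Kcnk9 had 10.9 and 14.4 CPM in dorsal striatum and 17.96 and 12.1 CPM in accumbens, which overlap (0.24, SE 0.34).

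**Figure D4:**
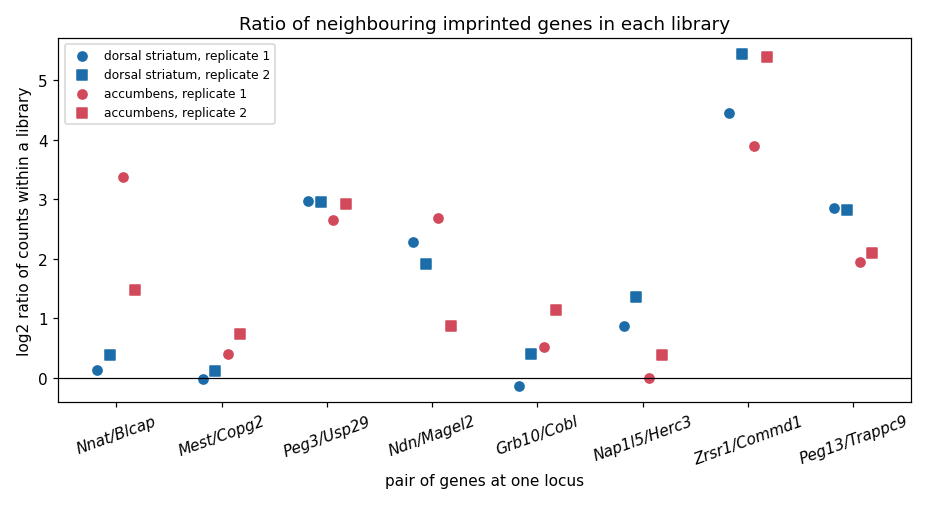
Log2 ratio of the counts of 2 imprinted genes of one locus within each library (vertical axis) for 8 of the 14 pairs computed (horizontal axis), with blue for dorsal striatum and red for accumbens. The regions do not overlap for Nnat/Blcap, Mest/Copg2, Peg3/Usp29, Grb10/Cobl, Nap1l5/Herc3 and Peg13/Trappc9, and they overlap for Ndn/Magel2 and Zrsr1/Commd1.

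Of the 14 ratios, 8 had regions that did not overlap, and none can fall below an exact p of 0.333, so none was adjusted further. For levels of single genes, 51.2% of all tested genes did not overlap, and no such share was computed for ratios of other genes. The ratios of Peg13 to Trappc9 and of Kcnk9 to Trappc9 share a gene. The count of ratios without overlap is therefore no result about these loci. The others without overlap were those of Peg3 to Usp29 (difference −0.19, SD 0.13), Grb10 to Cobl (0.70, SD 0.41), Kcnk9 to Trappc9 (−0.27, SD 0.19) and Kcnq1ot1 to Kcnq1 (−1.79, SD 0.28). The last rests on 3, 4, 11 and 7 counts of Kcnq1.

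The Peg3 locus codes for zinc finger proteins and a ubiquitin protease, and Peg3 itself acts in maternal behaviour. Peg3 stood at 847 and 1147 CPM in dorsal striatum and 799 and 1008 CPM in accumbens, with overlapping groups (log2 fold change −0.14, SE 0.17). Usp29, the protease gene that starts beside it on the opposite strand, stood at 108 and 147 CPM against 128 and 134 CPM (0.03, SE 0.17). Zim1, the maternal gene of the cluster, was low, at 5.46 and 8.85 CPM in dorsal striatum and 2.97 and 5.88 CPM in accumbens (−0.70, SE 0.53). Without accumbens replicate 2 Zim1 passed as lower in accumbens (−1.28).

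In the Prader-Willi/Angelman region, whose paternal genes are lost in the former syndrome and whose maternal Ube3a is lost in the latter, no member passed. Ube3a, a ubiquitin ligase gene active on the maternal copy in neurons, stood at 44.2 and 30.8 CPM in dorsal striatum and 68.0 and 53.6 CPM in accumbens. The groups did not overlap (log2 fold change 0.70, SE 0.23, edgeR adjusted p = 0.159), and without accumbens replicate 2 it passed (0.86). In GENCODE 8.74% of its exonic bases are also exonic in the noncoding gene Snhg14, its antisense partner, and the strand setting of the counting is not given in the sources used here. Atp10a, a phospholipid transporter gene, stood at 2.73 and 1.91 against 5.57 and 4.63 CPM (1.14, SE 0.59, edgeR adjusted p = 0.341).

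Ndn and Magel2, paternal genes of the MAGE family in this region, varied more between the libraries of a region than between regions. Ndn stood at 20.6 and 35.9 CPM in dorsal striatum and 12.3 and 26.9 CPM in accumbens, and Magel2 at 4.20 and 9.56 CPM and at 1.86 and 14.6 CPM. Replicate 2 was the higher one in each region for both genes. Of the 33 tested members, 23 were higher in replicate 2 of dorsal striatum and 19 in replicate 2 of accumbens. Without accumbens replicate 2 both passed as lower in accumbens (log2 fold change −1.22 and −1.91), and without accumbens replicate 1 Magel2 passed as higher (1.06). The summed level of 10 markers of hypothalamus, septum and pallidum was 24.0 and 35.8 CPM in replicates 1 and 2 of dorsal striatum, against 10.8 and 30.8 CPM in those of accumbens. Except in accumbens replicate 1, most of this sum was Slc17a6, a glutamate transporter gene of these areas, at 15.2, 22.4, 3.59 and 19.9 CPM in the same order, and Trh, a releasing hormone gene, at 0.84, 3.98, 0 and 3.50 CPM was also higher in replicate 2. Nkx2-1, a transcription factor gene of these areas, did not follow Ndn and Magel2, at 6.41, 6.30, 5.45 and 6.63 CPM, and Agrp, a feeding peptide gene, was lower in replicate 2 of accumbens, at 0.62 and 0.38 CPM. Hcrt, which defines orexin neurons, was at 0 in all 4. Of these 10 markers 3 were tested and none passed, and their part in the Ndn and Magel2 values was not tested.

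Snrpn and Snurf are read from 1 transcript, which encodes a spliceosome protein and a short peptide upstream of it. In GENCODE all exonic bases of Snurf (100%) are also exonic in Snrpn, and a read that fits both is counted as ambiguous, so their 26, 29, 22 and 47 and their 2, 2, 1 and 1 counts are uncertain. Mkrn3, a puberty gene, had 2 and 7 counts in the dorsal striatum libraries and 0 in both accumbens libraries. Peg12 had 1 count in all libraries together.

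**Figure D5:**
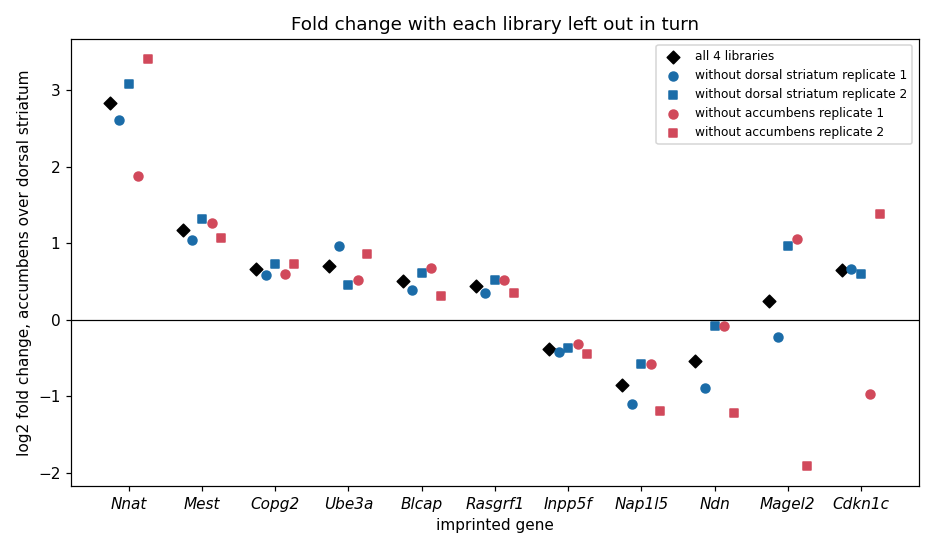
Log2 fold change of accumbens over dorsal striatum (vertical axis) for 11 imprinted genes (horizontal axis) with all 4 libraries (black) and with each library left out in turn. Nnat lies between 1.87 and 3.41 and Mest between 1.04 and 1.31, while Magel2 goes from −1.91 to 1.06 and Cdkn1c from −0.97 to 1.39.

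By CPM the growth genes of distal chromosome 7 were low or at 0 counts, apart from Kcnq1ot1 and Nap1l4. The Kcnq1ot1 transcript is 93092 bases long. Per kilobase it came to 0.85 CPM in dorsal striatum and 0.78 in accumbens, below Igf2 at 1.43 and 1.95. Igf2, the fetal growth factor gene, stood at 7.25 and 6.30 CPM in dorsal striatum and 11.1 and 7.25 CPM in accumbens (log2 fold change 0.44, SE 0.41), so that accumbens replicate 2 and dorsal striatum replicate 1 were level. In adult brain Igf2 is known from choroid plexus and meninges, where Ttr defines choroid plexus. The 7 choroid plexus markers did not go one way: Ttr had 0 counts in both accumbens libraries and at most 0.11 CPM in dorsal striatum, Kl stood at 3.26 and 4.30 CPM in dorsal striatum against 10.3 and 10.3 CPM in accumbens (log2 fold change 1.43, SE 0.42, edgeR adjusted p = 0.126), and Clic6 at 15.7 and 20.9 against 16.2 and 24.6 CPM. The 7 markers of meninges and fibroblasts summed to 5.88 and 4.22 CPM in dorsal striatum and 6.32 and 6.25 CPM in accumbens, with Islr at 1.26 and 0.88 against 5.57 and 1.75 CPM and Dcn at 0.84 and 0.80 against 0.12 and 0.13 CPM. Their part in the Igf2 values was not tested. H19, its maternal noncoding partner, and Phlda2, a placental growth gene, had 0 counts in every library, where 3 counts correspond to 0.253 to 0.354 CPM by library size. Such limits cover counting error only.

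Kcnq1ot1, the paternal antisense RNA that silences its cluster, was measured at 94.4 and 63.8 CPM in dorsal striatum and 83.0 and 61.4 CPM in accumbens (log2 fold change −0.13, SE 0.23). Cdkn1c, a maternal cell cycle inhibitor gene of the same cluster, stood at 2.52 and 2.39 against 6.44 and 1.25 CPM, so that the accumbens libraries lay on either side of dorsal striatum. Its log2 fold change was 0.65 (SE 0.82) and turned to −0.97 without accumbens replicate 1, while without accumbens replicate 2 it passed as higher (1.39). Nap1l4, a histone chaperone gene at the edge of the cluster, stood at 46.4 and 63.0 against 46.7 and 47.5 CPM (−0.22, SE 0.20).

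Grb10, an adaptor gene that damps insulin and growth factor signals, is paternal in neurons and maternal elsewhere. It stood at 110 and 159 CPM in dorsal striatum and 151 and 211 CPM in accumbens, with overlapping groups (log2 fold change 0.43, SE 0.22, edgeR adjusted p = 0.333). Without accumbens replicate 1 it passed (0.65). Cobl, an actin nucleator gene beside it, stood at 121 and 121 against 106 and 95.8 CPM, with both accumbens libraries lower (−0.26, SE 0.14, edgeR adjusted p = 0.363). Ddc, the decarboxylase gene of dopamine and serotonin synthesis, stood at 7.46 and 8.53 against 4.58 and 10.8 CPM (−0.06, SE 0.48), which overlap. Of the 2 tested markers of monoamine neurons, Th, the enzyme gene of catecholamine neurons, stood at 3.99 and 5.98 against 7.31 and 4.25 CPM. Slc18a2, their vesicular transporter gene, stood at 6.83 and 10.4 against 5.203 and 8.88 CPM and was, like Ddc, higher in replicate 2 of each region. In each region most tested members were also higher in replicate 2.

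Igf2r, the receptor gene that clears IGF2 and sorts lysosomal enzymes, stood at 42.3 and 53.9 CPM in dorsal striatum and 67.0 and 48.5 CPM in accumbens (log2 fold change 0.26, SE 0.22). Airn, the paternal RNA that silences it outside neurons, had 11, 5, 2 and 6 counts and was not tested.

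Among the loci with a single listed gene, Rasgrf1, Inpp5f and Zdbf2 had groups that did not overlap. Rasgrf1, a paternal exchange factor gene for Ras that links calcium to memory and growth, stood at 582 and 646 CPM in dorsal striatum and 786 and 885 CPM in accumbens (log2 fold change 0.45, SE 0.12, edgeR adjusted p = 0.112). It passed with DESeq2 (adjusted p = 0.0141), which passed 897 of all genes against 186 in the main test. With 1 library left out its log2 fold change lay between 0.35 and 0.53. Inpp5f, a phosphoinositide phosphatase gene with a paternal isoform in brain, stood at 366 and 377 against 272 and 298 CPM (−0.38, SE 0.12, edgeR adjusted p = 0.144) and passed without accumbens replicate 2 (−0.45). Zdbf2, a zinc finger gene that acts on feeding, stood at 229 and 251 against 257 and 290 CPM (0.19, SE 0.13, edgeR adjusted p = 0.483).

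Impact, Gnas and Plagl1 had overlapping groups. Impact, a brake on the stress kinase GCN2, stood at 356 and 453 against 323 and 405 CPM (−0.15, SE 0.16). Gnas, which encodes the stimulatory G protein alpha subunit along with imprinted isoforms that share its exons, stood at 783 and 1008 against 846 and 902 CPM (−0.03, SE 0.14). Plagl1, a zinc finger gene that restrains growth and acts on other imprinted genes, was the closest to equal, at 19.4 and 17.9 against 18.1 and 18.8 CPM (−0.02, SE 0.26).

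Levels of different genes were compared as CPM per kilobase of the longest transcript. In dorsal striatum Gnas was highest at 227 ± 40.3 (SD, n = 2), followed by Nap1l5 at 203 ± 50.2, Rasgrf1 at 129 ± 9.48, Peg3 at 115 ± 24.4 and Impact at 107 ± 18.1 CPM per kb. Gnas and Nap1l5 lay within each other's SD, and the SD of Peg3 spanned the levels of Rasgrf1 and Impact. Nnat was 7th there at 66.7 ± 15.1 CPM per kb. In accumbens Nnat was highest at 478 ± 329, followed by Gnas at 222 ± 10.04, Rasgrf1 at 175 ± 14.6 and Nap1l5 at 113 ± 33.0 CPM per kb, and the spread of Nnat reached down to the level of Gnas. Mest went from 29.5 ± 3.76 in dorsal striatum to 67.0 ± 6.44 CPM per kb in accumbens. This order depends on the length used. With the union of all exons as length, the level of Gnas was 80.0 in dorsal striatum and 78.2 in accumbens, below Nap1l5 at 203 and 113 CPM per kb, and Rasgrf1 in dorsal striatum (55.5) was below Impact (78.8) and Peg3 (74.8). Nnat was highest in accumbens with either length (317 CPM per kb of exon union).

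The accumbens libraries differed from each other by over 2-fold for 7 of the 33 tested members (21.2%), beside 21.7% of all tested genes. These were Nnat, Ndn, Magel2, Snrpn, Cdkn1c, Ddc and Commd1. The dorsal striatum libraries did so for 2 members, Magel2 and Commd1 (6.06%), beside 4.87% of all tested genes.

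The genes that keep imprints gave no call with edgeR among 20 tested of 24 listed. Their median log2 fold change was −0.25, 15 had negative and 5 positive values, and at an unadjusted p under 0.05 there were 6 with negative values, beside 8.27% of all tested genes. Both accumbens libraries lay below for 10 of the 20, beside 25.6% of all tested genes. Zfp445, a zinc finger protein gene of imprint control, stood at 216 and 199 CPM in dorsal striatum and 146 and 138 CPM in accumbens (log2 fold change −0.55, SE 0.13, edgeR adjusted p = 0.0854). Dnmt3a, the methyltransferase gene of neurons, stood at 223 and 200 against 164 and 154 CPM (−0.42, SE 0.13, edgeR adjusted p = 0.149), and Ctcf, the insulator protein gene, at 97.4 and 89.2 against 63.2 and 73.5 CPM (−0.45, SE 0.16, edgeR adjusted p = 0.188). Zfp57 was low, at 2.94 and 3.19 against 2.35 and 1.00 CPM, and Trim28 stood at 63.4 and 65.3 against 66.3 and 59.9 CPM (−0.03, SE 0.16).

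Among imprinted genes of the clusters left out here, Dlk1 and Peg10 were higher in accumbens with log2 fold changes of 2.21 (SE 0.26) and 1.95 (SE 0.20), while Meg3 and Sgce, their neighbours, had −0.16 (SE 0.11) and −0.12 (SE 0.21).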

How the data were processed

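Total RNA of 4 input libraries was sequenced. The deposited files hold raw counts of reads per gene symbol, which the authors made with STAR 2.0.0e and HTSeq on the mouse build mm10 (from the submitters' processing notes). Which annotation and strand setting the counting used is not given in the sources used here. Reads in no feature (27.5% to 35.4%), ambiguous reads (6.06% to 9.46%) and reads with several alignments (6.98% to 10.2%) stayed out of library sizes and tests. Ambiguous reads were 7.38% and 6.06% in dorsal striatum against 8.41% and 9.46% in accumbens. Reads with several alignments were 6.98% and 8.75% against 9.93% and 10.2%. The ribosomal RNA row Rn45s took 2.03% and 3.34% of gene counts against 5.61% and 5.94%. Genes with any count numbered 19519 and 19532 against 16915 and 17417. The part of these library differences in the results was not tested.

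Counts were TMM-scaled, filtered with filterByExpr and tested with edgeR 4.0.16 (glmQLFit, glmQLFTest, region as the only term) in R 4.3.3, two-sided, with Benjamini-Hochberg adjustment over all 14493 tested genes. SE was taken as the absolute log2 fold change over the root of the F statistic. Paired values are given in the order replicate 1, replicate 2, and 4 values run from dorsal striatum to accumbens. Alternatives used DESeq2 1.42.0, limma 3.58.1, other scalings, offsets for transcript length and GC content, a replicate block and each library left out. Lengths, exon overlaps and coordinates are from GENCODE M21 (GRCm38, the chromosomes of mm10). On simulated data for this comparison (14032 genes) the test recovered 38.8% of 2-fold and 81.8% of 4-fold changes. The members and lists were chosen with earlier results of these data known. All 42 members were to be accounted for: full values for those past the threshold, the 5 next by unadjusted p and 1 of each locus. The figures, ratios and genes shown in more detail beyond that rule were chosen after the values were seen. Markers of other cell types are described beside some members only, a choice made after the values were seen.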

Additional observations from a re-analysis of the deposited data

How the results depend on the processing

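Nnat and Mest passed the threshold in the same direction under every alternative run, with log2 fold changes of 2.63 to 2.84 and 1.01 to 1.25 when all 4 libraries were kept. The number of members past the threshold was 2 in the main test and 6 without the low-count filter (5 higher and 1 lower in accumbens). It was 5 with DESeq2 (4 and 1) and 4 with the replicate block (1 of them lower). Over all genes these settings passed 1203, 897 and 843, against 186 in the main test. The rise among the members is to be read beside that rise. Leaving out each library gave 2 to 11 members past the threshold (11 without accumbens replicate 2, 8 without accumbens replicate 1), with 2 to 7 higher and 0 to 5 lower. Over all genes 186 passed (144 higher and 42 lower). This count was 1203 without the low-count filter (768 and 435), 897 with DESeq2 (592 and 305), 431 with limma-voom (310 and 121), 371 with the newer edgeR fit (267 and 104), 843 with the replicate block (551 and 292), and 118 with the GC offset (88 higher). Scaling by library size alone gave 72 higher and 172 lower. Leaving out each library gave 109 to 4464 (81 to 2386 higher and 28 to 2078 lower), where a region left with 1 library was taken to vary like the other. The cause of these shifts was not tested.

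The replicate numbers are not stated to mark shared animals, and the deviations of same-numbered libraries correlated at only 0.03 across 14493 genes, so the block, under which Copg2 and Nap1l5 also passed, is not the main result.

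Of the 33 tested members 19 kept their sign under every one of the 14 alternatives in which they were read. For Zim1, Snrpn and Atp10a among these, DESeq2 was not read, as it gave them no adjusted p. With all libraries kept, the sign turned for Usp29 (−0.017 with upper-quartile scaling, −0.14 with library size alone), Herc3 (−0.094) and Zrsr1 (−0.076) with library size alone, Plagl1 (0.066 with the GC offset) and Magel2 (−0.35 with limma-voom, −0.17 with the replicate block). Leaving out a library gave ranges that include 0 for Peg3 (−0.36 to 0.089), Usp29 (−0.19 to 0.27), Magel2 (−1.91 to 1.06), Cdkn1c (−0.97 to 1.39), Kcnq1ot1 (−0.39 to 0.16), Nap1l4 (−0.44 to 0.015), Plagl1 (−0.083 to 0.026), Ddc (−0.81 to 0.42), Impact (−0.33 to 0.027), Herc3 (−0.048 to 0.19), Gnas (−0.22 to 0.15), Zrsr1 (−0.13 to 0.28), Commd1 (−0.68 to 1.27) and Kcnk9 (−0.074 to 0.49). DESeq2 gave no adjusted p for 5 members, which are left out of its counts. The highest 10 genes per length were the same 10 with the union of exons as length, in another order.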
